A study of Mus musculus with 4 samples.

Results

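The cells described here are 138 cells of sorted CD4 T cell libraries, 54 from the brain and 84 from the spleen, that carried transcripts of at least 3 of the 5 genes Gzma, Zeb2, S1pr5, Cx3cr1 and Klrg1. They are called marker-positive cells. They were taken from 11095 barcodes kept as T cells, of 12984 deposited. A kept barcode had at least 500 genes, at least 1000 unique molecular identifiers (UMIs, 1 per captured RNA molecule) and at most 10% mitochondrial UMIs. It had at most 1 productive TRB and 2 productive TRA chains, no invariant TRAV11 with TRAJ18 alpha chain, and no UMI of the B cell gene Cd79a or the microglial gene C1qa. The marker-positive cells were 1.42% of the 3792 kept brain cells (exact binomial 95% interval 1.07 to 1.85%) and 1.15% of the 7303 kept spleen cells (0.918 to 1.42%). The remaining 3738 brain and 7219 spleen cells are called other cells.

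All cells came from wild-type C57BL/6 mice in which experimental autoimmune encephalomyelitis (EAE), a T cell-driven inflammation of brain and spinal cord induced by immunization, had been started 60 days earlier. Conventional CD4 T cells, gated as CD44+ and GITR-, were taken from both organs, and droplet libraries of 5′ RNA ends and T cell receptors (TCRs) were made from 18718 brain and 38000 spleen cells. There was 1 RNA library and 1 TCR library per tissue, the sources used here do not say how many animals were pooled for each, and no mice without EAE were analysed here. Tissue, animals and library therefore cannot be told apart, no test between groups was possible, and every interval below covers counting error only. The RNA libraries held 44386447 UMIs in brain and 65191435 in spleen. The median marker-positive cell had 9795 UMIs in brain and 5376 in spleen, and the median other cell 9832 and 7186. The brain and spleen libraries shared 31 barcode sequences, 1 of them a brain marker-positive cell. Of these, 7 had a paired receptor in both libraries, with the same receptor in 0.

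Some CD4 T cells, after strong or repeated stimulation, take on a killing program that is better known from CD8 T cells and natural killer (NK) cells. The transcription factor ZEB2 acts with T-bet, the product of Tbx21, to drive that terminal state. Such cells lose the lymph node receptor CCR7 and instead carry S1PR5, a sphingosine 1-phosphate receptor used for exit into blood, and CX3CR1, the receptor for the endothelial and neuronal chemokine fractalkine. KLRG1, an inhibitory lectin receptor that binds cadherins, marks terminally differentiated effector cells in mice, and granzyme A, encoded by Gzma, is a serine protease delivered from cytotoxic granules. In the brain, CX3CR1 is otherwise best known from microglia.

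The T cell receptor marks descent: cells with the same alpha and beta chain nucleotides come from a common ancestor with few exceptions. A clonotype was defined by the TRB and the TRA V gene together with the complementarity-determining region 3 (CDR3) nucleotides of both chains. The 5 clonotypes with at least 4 marker-positive cells in a tissue are shown because they hold the most marker-positive cells. TRBV13-3 with TRAV13N-1 had 0 kept cells in spleen, and TRBV13-2 with TRAV7-4 had 0 marker-positive cells in brain. The others had marker-positive cells in both tissues. In each CDR3, written 5′ to 3′, capitals mark the junction, that is the bases outside the start shared by most clonotypes of the same V gene and the end shared by most clonotypes of the same J gene in these libraries. The TRB locus lies on mouse chromosome 6 and the TRA locus on chromosome 14.
TRBV26 TRBJ1-5 beta, leading clonotype: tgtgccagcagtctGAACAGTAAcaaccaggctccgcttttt
TRAV7-5 TRAJ32 alpha of the same clonotype: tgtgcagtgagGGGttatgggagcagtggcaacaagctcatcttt
TRBV13-3 TRBJ2-5 beta: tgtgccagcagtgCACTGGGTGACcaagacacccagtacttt
TRAV13N-1 TRAJ21 alpha: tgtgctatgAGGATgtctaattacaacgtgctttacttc
TRBV26 TRBJ1-2 beta: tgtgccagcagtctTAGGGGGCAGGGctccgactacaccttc
TRAV9-1 TRAJ22 alpha: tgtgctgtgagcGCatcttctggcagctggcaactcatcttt
TRBV13-2 TRBJ1-4 beta: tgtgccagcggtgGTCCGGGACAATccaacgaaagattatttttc
TRAV7-4 TRAJ23 alpha: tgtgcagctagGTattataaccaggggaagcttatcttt
TRBV15 TRBJ2-7 beta: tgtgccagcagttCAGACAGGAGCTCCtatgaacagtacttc
TRAV9-4 TRAJ40 alpha: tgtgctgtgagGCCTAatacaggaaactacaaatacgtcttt

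With 1 exception in spleen the marker-positive cells were T cells by their RNA, and most carried Cd4. A CD3 transcript was found in 54 of 54 brain and 83 of 84 spleen cells, and a productive TRB chain in 45 of 54 and 75 of 84, shares of 83.3% and 89.3% against 81.8% and 87.0% of other cells. Cd4 itself was detected in 53 of 54 brain and 71 of 84 spleen cells. The T cell list (10 genes) summed to 4409 against 4274 CPM (UMIs of a gene scaled to 1000000 UMIs of the group) in brain marker-positive and other cells, and to 4666 against 4876 CPM in spleen. Cd8a and Foxp3, which define CD8 and regulatory T cells, had 0 UMIs in the marker-positive cells of both tissues. For 0 of 54 and 0 of 84 cells the shares with a UMI are up to 6.60% and 4.30%, which is no limit on cells that express the genes. The other CD8 chain gene, Cd8b1, had 4 UMIs in 3 brain cells and 1 UMI in 1 spleen cell.

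Markers of myeloid and B cells were read as whole lists. The monocyte or macrophage list (13 genes) summed to 726 against 667 CPM in brain and 489.6 against 384 CPM in spleen, in marker-positive against other cells, with 7 and 6 genes at 0 in marker-positive cells, Lyz2 and Csf1r among them. Cst3, a protease inhibitor gene of that list, was detected in 41 of 54 brain cells at 146 against 121 CPM, and Ctss, a protease gene, in 36 at 145 against 156 CPM. Of the microglia list (11 genes), 8 in brain and 10 in spleen were at 0 in marker-positive cells, Tmem119 and P2ry12 among them. The B cell list (7 genes) summed to 41.6 against 101 CPM in brain and 7.80 against 291 CPM in spleen, with 6 genes at 0 in each and Ighm detected in 12 brain and 4 spleen cells. The part of these cell types in the gene levels below was not tested.

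NK cells carry the same 5 genes, so their markers were read beside them. The NK cell list (12 genes) summed to 606 against 135 CPM in brain and to 435 against 39.0 CPM in spleen, in marker-positive against other cells, with 6 of its genes at 0 in brain and 3 at 0 in spleen marker-positive cells. Of the brain sum 493 CPM lay in Il12rb2, a receptor chain that Th1 cells also carry. The defining gene Ncr1 had 0 UMIs in brain. In spleen its 4 UMIs lay in 1 barcode, which had no CD3 UMI, no Cd4 UMI and no TRB chain. That barcode also held all 24 Tyrobp, 14 Fcer1g, 10 Klra4, 9 Klra8 and 9 Klra7 UMIs of the spleen marker-positive cells, and 57 of their 289 Gzma and 9 of their 38 Prf1 UMIs. It met the rule and stays among the 84; without it, 313 of the 317 genes counted as higher and 220 of the 224 counted as lower in spleen kept that call.

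The 5 rule genes chose these cells, so their levels are a description. In the 54 brain cells Zeb2 was detected in 53, Klrg1 in 52, Cx3cr1 in 45, S1pr5 in 42 and Gzma in 16. In the 84 spleen cells Zeb2 was detected in 81, S1pr5 in 73, Klrg1 in 70, Cx3cr1 in 66 and Gzma in 19. The most frequent combination was Zeb2, S1pr5, Cx3cr1 and Klrg1 without Gzma, in 24 brain and 32 spleen cells, and all 5 genes were found in 8 and 9 cells. Summed over cells, Zeb2 reached 434 CPM in brain marker-positive and 46.2 CPM in brain other cells, and 882 and 6.97 CPM in spleen. S1pr5 set the cells most apart, with 173 against 0.283 CPM in brain and 455 against 0.202 CPM in spleen. Gzma reached 744 CPM in brain, from a minority of cells with many copies: the lowest and the median cell had 0 CPM and the highest 12929 CPM, and in spleen the highest had 11057 CPM.

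Free RNA in droplets was read from 140 spleen barcodes with Cd79a UMIs, no TRB or TRA chain and no CD3 UMI. They are a B cell-like reference with a median of 5388 UMIs. Barcodes with free CD3 RNA were thereby left out, so the shares can understate free T cell RNA. Brain had only 1 such barcode, so its background was not measured. S1pr5, Cx3cr1 and Klrg1 were found in 0 of 140, which allows 2.60%, and Gzma in 0.714%. Zeb2 was found in 25% of them, 22.4% of other brain cells and 2.58% of other spleen cells, so its share in the B cell-like barcodes is not the background of spleen T cells. Cells with 3 rule genes numbered 16 in brain and 36 in spleen, and cells just outside the rule, with 2 genes, 167 and 34. Just inside, S1pr5 levels were 50.2 CPM (brain) and 319.8 CPM (spleen), and just outside they were 3.09 and 16.1 CPM. Ccl5 stood at 2377 and 11568 CPM with 3 genes, and at 1053 and 3156 CPM with 2 genes. With every cell thinned to 3000 UMIs before the rule, the marker-positive share was 0.785% in brain (28 of 3566, 0.522 to 1.13%) and 0.930% in spleen (63 of 6776, 0.715 to 1.19%). The intervals of brain and spleen overlapped with and without thinning, and no order of the tissues is read from them. The shallower cells left out numbered 226 other cells in brain, and 2 marker-positive and 525 other cells in spleen.

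**Figure D1:**
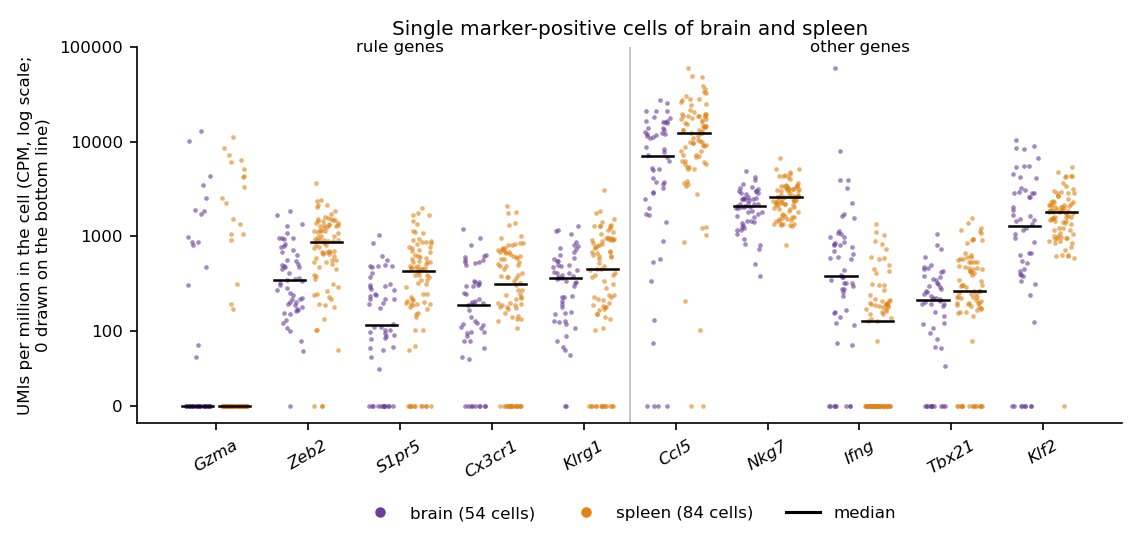
Level of 10 genes in each marker-positive cell (points, CPM of that cell on a log axis, with 0 on the bottom line) in brain (left of each pair, 54 cells) and spleen (right, 84 cells), with the median as a bar; the 5 genes left of the line chose the cells. Nkg7 was detected in every cell, Gzma in 16 and 19 cells, and 1 brain cell stands alone at 59926 CPM of Ifng.

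Genes outside the rule were compared by the ratio of their summed CPM. Past the fold means a ratio of 2 or more (higher) or 0.5 or less (lower), and a measured gene has at least 50 CPM in the group where it is higher. In this way 143 of 3921 measured genes (3.65%) were higher and 141 (3.60%) lower in brain marker-positive than in brain other cells, 7.24% either way. In spleen 317 of 4125 (7.68%) were higher and 224 (5.43%) lower, 13.1% either way. Over every measured gene the median log2 ratio came to 0.10 in brain and 0.16 in spleen. With TMM scaling, which centres the bulk of genes, it was -0.01 and -0.04, and the counts became 111 higher and 174 lower in brain and 235 and 295 in spleen. The share of higher genes among those past the fold was then 38.9% in place of 50.4% in brain and 44.3% in place of 58.6% in spleen. Of the genes measured and past the fold in both tissues, 103 were higher in both, which is 86.6% of the 119 higher in brain and 41.2% of the 250 higher in spleen, and 74 were lower in both, 71.2% of 104 and 43.5% of 170. The rule used these contrasts, so they describe the cells and support nothing about them. The same holds for the lists below: a gene counts only where it was measured, and one measured only through the group where it is high had to differ. List counts against other cells are to be read beside the shares over all measured genes given above.

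The cytotoxic granule list was higher in part: of its 17 genes 12 were measured in brain and 14 in spleen, of which 6 and 8 were higher and 0 were lower, with median log2 ratios of 0.94 and 1.98, beside the 3.65% and 7.68% of all genes. Nkg7, a granule membrane protein needed for degranulation in mice, was found in all 138 cells. It had 1950.5 CPM in brain marker-positive and 357 CPM in brain other cells, 5.46-fold (95% interval 5.14 to 5.80), and 2587 against 119.9 CPM in spleen, 21.6-fold (20.3 to 22.9). Fasl, the death receptor ligand, stood at 305 against 123 CPM in brain and 179 against 21.5 CPM in spleen. Serpinb9, an inhibitor that shields cells from their own granzyme B, stood at 209.7 against 50 CPM in brain and 115 against 22.0 CPM in spleen. Transcripts of granzyme B and perforin were found in a minority of cells. Gzmb, granzyme B, was found in 11 brain and 10 spleen cells, at 89.9 CPM against 20.9 CPM in brain and 44.9 CPM against 8.68 CPM in spleen, where it stayed under the 50 CPM minimum. Prf1, perforin, was found in 14 and 16 cells. Its level was 49.9 against 8.26 CPM in brain, also under that minimum, and 74.1 against 19.0 CPM in spleen. A UMI of Gzma, Gzmb or Prf1 was present in 26 of 54 brain cells (48.1%, 34.3 to 62.2%) and 30 of 84 spleen cells (35.7%, 25.6 to 46.9%), against 10.2% and 12% of other cells. Gzma is a rule gene, so part of this difference was set by the rule. Outside the rule, Gzmb was found in 20.4% against 3.69% of cells in brain and 11.9% against 0.997% in spleen. Prf1 was found in 25.9% against 6.15% in brain and 19.0% against 10.7% in spleen. In the B cell-like barcodes the shares were 0.714% for Gzma, 0% for Gzmb and 0.714% for Prf1. These are shares of cells with a detected transcript; at these depths a cell without a UMI may still express the gene, so how far the word cytotoxic holds for the remaining cells was not measurable here.

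Of 17 killer lectin receptor and related NK receptor genes, 5 were measured in brain and 8 in spleen. All of these were higher, with median log2 ratios of 2.82 and 4.44, beside 3.65% and 7.68% of all genes. The brain genes had at most 48.5 CPM in other cells, so they were measured only through the marker-positive cells. The spleen genes named here had at most 23.3 CPM there, so once measured they had to be past the fold. Klrd1, which encodes CD94, had 343 against 48.5 CPM in brain and 429 against 23.3 CPM in spleen, and Klrc1, its inhibitory partner NKG2A, 191 against 48.4 CPM and 254 against 11 CPM. The activating receptor gene Klrk1 (NKG2D) had 163 against 43.6 CPM in brain and 322 against 15.8 CPM in spleen. Slamf7, a homotypic receptor of cytotoxic lymphocytes, had 256 against 27.3 CPM in brain and 310.2 against 21.9 CPM in spleen. Klre1 and, in spleen, Klra3 and Klri2 were among the genes with the highest ratios: Klre1 had 56.6 against 4.74 CPM in brain and 87.8 against 0.827 CPM in spleen, Klra3 50.7 against 0.349 CPM, and Klri2 54.6 against 0.404 CPM in spleen. Klra genes are closely related copies, so the counting could split reads between them. Of the Klra3 UMIs, 0 came from the barcode without CD3. Without its top cell Klre1 stood at 44.0 CPM in brain, under the 50 CPM minimum.

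The cytokine and chemokine list was mixed in brain, where 3 of 8 measured genes were higher and 4 lower with a median log2 ratio of -0.83, and higher in 2 of 3 in spleen with a median of 3.69. Ccl5, which attracts T cells and monocytes, was found in 50 of 54 brain and 82 of 84 spleen marker-positive cells. It stood at 7138 CPM in brain marker-positive and 493 CPM in brain other cells, 14.5-fold (14.0 to 15.0), and at 13263 against 208 CPM in spleen, 63.9-fold (62.0 to 65.8). Ifng, the Th1 cytokine interferon gamma, stood at 2421 against 279 CPM in brain and 205 against 15.9 CPM in spleen. A single brain cell held 66.6% of the brain Ifng UMIs; without it the level was 831 CPM and the ratio 2.98 in place of 8.66. Ifng was detected in 46 of 54 brain and 44 of 84 spleen cells, and at 3000 UMIs per cell in 61.1% against 30.8% of other cells in brain and 36.6% against 3.12% in spleen. Ccl4, a chemokine gene for monocytes and T cells, stood at 258 against 65.4 CPM in brain. The lower genes in brain, beside Il17a, were the chemokine genes Xcl1 (6.66 against 83.3 CPM) and Ccl1 (3.33 against 96.5 CPM) and the lymphotoxin gene Lta (25 against 59.8 CPM). The receptor chains for interleukin 12 and interleukin 18, which raise Ifng in Th1 cells, were also higher. Il12rb2 had 493 against 104 CPM in brain and 154 against 18.5 CPM in spleen, and Il18rap had 543 against 106 CPM and 792 against 30.1 CPM. The receptor for interleukin 7, Il7r, which keeps memory cells alive, was lower at 186 against 589 CPM in brain, and at 363 against 667 CPM in spleen it stayed within the fold.

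Most measured Th17 genes were low in the brain cells. The share lower over all measured genes was 3.60% in brain and 5.43% in spleen. Of 5 measured list genes 4 were lower and 0 higher: Il1r1 had 21.6 against 89.5 CPM, Tmem176a 30 against 165 CPM and Tmem176b 53.3 against 239 CPM. Il17a, the lead cytokine of Th17 cells in EAE, had 63.2 against 249 CPM, and its 38 UMIs lay in 1 of the 54 cells. The remaining measured gene, the transcription factor gene Rora, was found in 53 of the 54 cells and stayed within the fold. In spleen Rora was the only list gene measured, and it was higher, with a log2 ratio of 1.99. Follicular helper genes were lower in 4 of 5 measured in both tissues, with median log2 ratios of -1.69 in brain and -2.93 in spleen. Izumo1r had 1.66 against 91.2 CPM in brain and 5.85 against 336 CPM in spleen, and Slamf6 25 against 92.7 CPM and 37.1 against 282 CPM. Regulatory T cell genes were lower in 3 of 5 and 5 of 6, among them Ikzf2 (Helios) with 1.66 against 101 CPM in brain and 3.90 against 207 CPM in spleen. The GITR gene Tnfrsf18, whose protein was used as a negative gate, was detected at 74.9 against 167 CPM in brain and 81.9 against 128 CPM in spleen.

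Transcription factors of the effector list were higher in part, and those of the memory list were lower in part. Of the effector list 5 of 11 measured genes in brain and 8 of 10 in spleen were higher and 0 lower, with median log2 ratios of 0.93 and 1.99. Over all measured genes 3.65% were higher and 3.60% lower in brain, and 7.68% and 5.43% in spleen. Tbx21 had 211 against 67.2 CPM in brain, 3.14-fold (2.61 to 3.76), and 390.1 against 23.0 CPM in spleen, 17.0-fold (14.6 to 19.7). Prdm1 (Blimp-1) had 86.5 against 34.2 CPM and 62.4 against 11.2 CPM, and Hopx, a survival factor of Th1 effector cells, 431 against 165 CPM and 529 against 93.9 CPM. Klf2, which turns on S1pr1 and other exit genes in quiescent T cells, had 1794 against 598 CPM in brain, 3.0-fold (2.82 to 3.19), and 1759.5 against 657 CPM in spleen, 2.68-fold (2.50 to 2.86). Eomes, the T-box factor of another cytotoxic state, had 1.66 against 15.3 CPM in brain and 17.6 against 12.1 CPM in spleen. Of the memory list 0 genes were higher, while 2 of 7 in brain and 7 of 8 in spleen were lower, with median log2 ratios of -0.84 and -1.87. Tcf7 (TCF-1) had 193 against 404 CPM in brain and 222 against 786 CPM in spleen, Bach2 33.3 against 183 CPM and 81.9 against 311 CPM, and Lef1 112 against 218 CPM and 117 against 583 CPM.

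Genes of traffic were mixed. In brain 3 of 13 measured genes of the egress and homing list were higher and 3 lower, and in spleen 7 of 12 were higher and 2 lower. The integrin chain Itgb1, a partner of Itga4 in adhesion to inflamed vessels, had 1087 against 398 CPM in brain and 1584 against 435 CPM in spleen. Itgb2, the beta chain of LFA-1, had 617 against 279 CPM and 858 against 258 CPM. Ccr7 had 2 UMIs in all brain and 1 UMI in all spleen marker-positive cells, 3.33 against 124 CPM and 1.95 against 356 CPM. S1pr1, the more widely used exit receptor, was lower in brain at 63.2 against 139.9 CPM and within the fold in spleen at 215 against 284 CPM. Among chemokine receptors Cxcr3, the receptor that guides Th1 cells to inflamed sites, was lower in brain at 88.2 against 192 CPM. In cells with at least 4 rule genes the log2 ratio of S1pr1 in brain was -0.81, within the fold. Cxcr3 was within it at -0.99 by the mean of single cells and at -0.98 at 3000 UMIs per cell.

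Inhibitory receptor genes were mostly low: 4 of 6 measured were lower and 1 higher in each tissue. Among all measured genes 3.65% were higher and 3.60% lower in brain, and 7.68% and 5.43% in spleen. Pdcd1 (PD-1) had 28.3 against 69.2 CPM in brain and 11.7 against 65.1 CPM in spleen, Ctla4 125 against 702 CPM and 7.80 against 267 CPM, and the exhaustion factor gene Tox 11.6 against 237 CPM and 46.8 against 348 CPM. A single brain cell held 46.7% of the Ctla4 UMIs, and without it the level was 69.5 CPM. The exception was Entpd1 (CD39), at 74.9 against 32.2 CPM in brain and 58.5 against 15.0 CPM in spleen. Without the leading clonotype the brain log2 ratio of Entpd1 was 0.86, and among cells with a paired receptor that of Pdcd1 was -0.96, both within the fold. Among co-stimulatory genes 4 of 9 in brain and 3 of 8 in spleen were lower, with Tnfrsf4 (OX40) at 11.6 against 144 CPM and 1.95 against 127 CPM and Cd27 at 9.99 against 71.1 CPM and 48.8 against 273 CPM. The list of S100, annexin and galectin genes, raised in many effector and memory cells, was higher in 4 of 14 genes in brain and 10 of 13 in spleen, with Lgals1 at 1814 against 564 CPM and 2760.2 against 451 CPM.

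The genes with the highest ratios outside these lists were mostly genes of few copies per cell. Fcgr2b, an inhibitory Fc receptor gene known mainly from B and myeloid cells, was detected in 20 of 54 brain and 35 of 84 spleen cells, at 88.2 against 2.27 CPM in brain, 38.9-fold (27.2 to 55.4), and 158 against 2.43 CPM in spleen, 65.1-fold (48.8 to 86.5). Kcnj8, a potassium channel subunit gene, was detected in 36 and 50 cells, at 107 against 7.26 CPM, 14.7-fold (11 to 19.3), and 207 against 0.882 CPM, 234-fold (165 to 337). In brain As3mt (53.3 against 1.62 CPM), Ly6a2 (56.6 against 0.515 CPM), Plek (168 against 14.7 CPM) and Baiap3 (94.9 against 11.9 CPM) also led. Hbegf was among them at 74.9 against 6.36 CPM, but 1 cell held 91.1% of its UMIs and the level without it was 6.90 CPM. Without their top cell As3mt and Ly6a2 stood at 44.0 and 49.1 CPM in brain, under the 50 CPM minimum. In spleen Tbkbp1 (70.2 against 1.43 CPM), Ncald (81.9 against 2.0 CPM) and Smpdl3b (81.9 against 2.57 CPM) led. At the low end in spleen Igfbp4 and Dapl1 had 0 UMIs in marker-positive cells against 207 and 161 CPM in other cells, so that with 3 counts allowed over the group their ratios are at most 0.0283 and 0.0364. The lymph node homing gene Ccr7 stood at 124 CPM in brain other cells and at 356 CPM in spleen other cells, and the part of that difference between the reference cells in the larger spleen ratios was not tested.

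**Figure D2:**
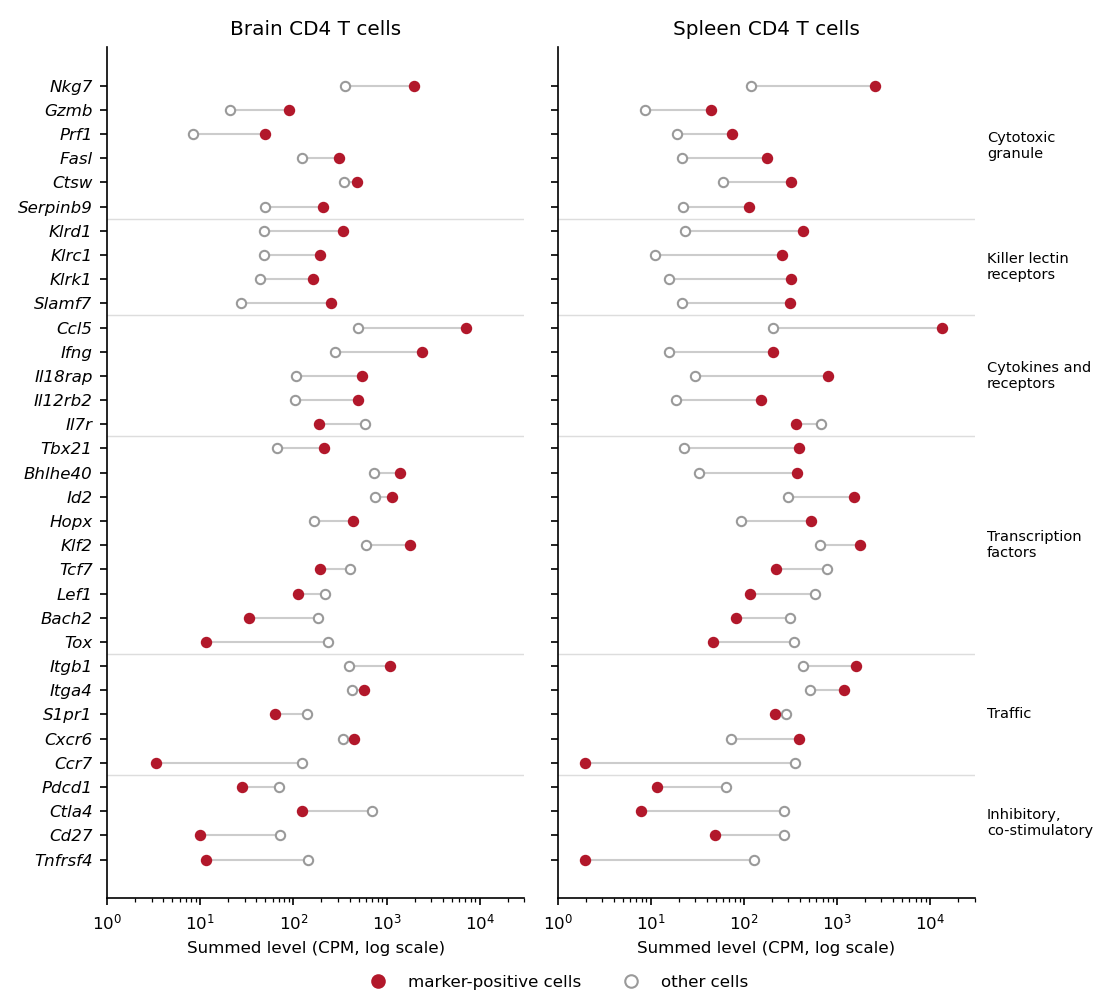
Summed level (CPM, log axis) of genes by role in marker-positive cells (filled) and other cells (open) of brain (left panel) and spleen (right panel); each point is 1 sum over cells with no replicate. Ccl5 and Nkg7 are among the highest of the genes drawn in spleen marker-positive cells, and Ccr7 stands at 3.33 and 1.95 CPM in marker-positive cells against 124 and 356 CPM in other cells.

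The populations nearest to these cells were defined by UMIs of 2 other gene pairs in cells outside the rule: Tbx21 with Nkg7 (955 brain and 402 spleen cells), a Th1-like combination, and Eomes with Gzmk (104 brain and 56 spleen cells), another cytotoxic-like combination. Both are also among the other cells. Their median cells had 10846 UMIs in brain and 8018 in spleen for Tbx21 with Nkg7, and 8808 and 7006 for Eomes with Gzmk. Of the marker-positive cells 43 of 54 in brain and 69 of 84 in spleen carried Tbx21 with Nkg7 too, and 1 in each tissue Eomes with Gzmk. Tbx21 itself stood at 211 CPM in brain marker-positive and 176 CPM in brain Tbx21 Nkg7 cells, although UMIs of Tbx21 chose the second group. Ccl5 was 7.69-fold higher than in Tbx21 Nkg7 cells in brain (7.42 to 7.96) and 10.6-fold in spleen (10.3 to 11). Klf2 was 7.08-fold higher in brain, at 1794 against 253 CPM, and 2.39-fold in spleen, at 1759.5 against 736 CPM. Klrd1 was 3.88-fold and 5.18-fold higher, and Kcnj8 7.28-fold and 27.3-fold. Cxcr3 went the other way, at 88.2 against 269 CPM in brain and 107 against 467 CPM in spleen.

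Against Eomes Gzmk cells perforin and granzyme B transcripts were lower or had intervals that included 1. The brain Eomes Gzmk cells also carried Cd8a at 60.9 and Cd8b1 at 88.1 CPM, against 0 and 6.66 CPM in brain marker-positive cells. In spleen the levels were 4.08 and 30.6 CPM, against 0 and 1.95 CPM. The part of CD8 T cells in the values of this group was not tested. Prf1 had 49.9 CPM in brain marker-positive and 88.1 CPM in brain Eomes Gzmk cells, 0.567-fold (0.363 to 0.863), and 74.1 against 71.4 CPM in spleen, 1.04-fold (0.639 to 1.69). Gzmb had 89.9 against 90.9 CPM in brain, 0.989-fold (0.695 to 1.39), and 44.9 against 42.8 CPM in spleen, 1.05-fold (0.554 to 1.99). A UMI of Gzma, Gzmb or Prf1 was found in 48.1% of brain and 35.7% of spleen marker-positive cells, beside 52.9% and 39.3% of Eomes Gzmk cells and 14.3% and 18.2% of Tbx21 Nkg7 cells. Because Gzma is a rule gene and both other groups lie outside the rule, the rule set part of these shares. Ccl5 was high in both populations, at 7138 against 4748 CPM in brain, 1.5-fold (1.44 to 1.57), and 13263 against 7839 CPM in spleen, 1.69-fold (1.63 to 1.76). Nkg7 was at 1950.5 against 1526 CPM in brain, 1.28-fold (1.18 to 1.38), and 2587 against 1289 CPM in spleen, 2.01-fold (1.82 to 2.21). Higher were Klf2 (12-fold in brain and 5.29-fold in spleen), Il18rap (10.3-fold and 25.9-fold), and lower was Tox, at 11.6 against 652 CPM in brain and 46.8 against 759 CPM in spleen. Gzmk was at 41.6 against 789.9 CPM and 76.1 against 647 CPM, with 76.9% of the spleen marker-positive UMIs in 1 cell, and was part of the definition of the Eomes Gzmk cells.

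Brain and spleen marker-positive cells were then compared with each other, a contrast the rule did not use, with the same ratio in other cells beside it. Of 4147 measured genes 254 (6.12%) were higher and 142 (3.42%) lower in brain, 9.55% either way, with a median log2 ratio of -0.08. With TMM scaling 297 were higher and 97 lower with a median of 0.03, so the share of higher genes was 75.4% in place of 64.1%. In other cells 265 of 3865 (6.86%) were higher and 78 (2.02%) lower in brain, 8.87% either way. The T cell list was level, with 0 of 10 genes past the fold and a median log2 ratio of -0.00.

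Early response genes, which switch on within minutes of stimulation and also during tissue dissociation, were higher in brain in 11 of 11 measured in marker-positive cells and 12 of 12 in other cells, with median log2 ratios of 4.82 and 3.58. Junb had 4785 CPM in brain and 414 CPM in spleen marker-positive cells, 11.6-fold (10.1 to 13.4), against 10.3-fold in other cells. Fos had 340 UMIs in brain and 1 UMI in spleen marker-positive cells, 566 against 1.95 CPM, a ratio of 290.1 (51.7 to 11490.5), and 1485 against 69.6 CPM in other cells. Egr1 (419 against 5.85 CPM), Nr4a1 (263 against 9.75 CPM) and Dusp1 (607 against 21.5 CPM) went the same way. The sources used here do not say how the cells of either organ were freed from tissue, and the part of that step in these values was not tested.

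Of the residency list, 10 of 11 measured genes were higher in brain marker-positive cells and 0 lower, with a median log2 ratio of 1.91, beside 10 of 12 and 2.95 in other cells. Cd69, which holds cells in tissue by removing S1PR1 from the surface and is also an activation gene, was detected in 39 of 54 brain and 15 of 84 spleen cells, at 491 against 33.2 CPM, 14.8-fold (9.09 to 25.8), and 706 against 150.4 CPM in other cells. Rgs1 had 684 against 48.8 CPM, 14.0-fold (9.37 to 21.9), and Bhlhe40, a factor of cytokine-producing T cells, 1396 against 373 CPM, 3.75-fold (3.20 to 4.41), where other cells had 21.9-fold. The gene outside the fold was Cxcr6, at 448 against 388 CPM, 1.15-fold (0.957 to 1.39), while in other cells it was 337 against 73.3 CPM. S1pr1 was lower at 63.2 against 215 CPM, 0.295-fold (0.198 to 0.430), beside 0.493-fold in other cells. Klf2 was level at 1794 against 1759.5 CPM, 1.02-fold (0.932 to 1.12).

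Of the rule genes, 2 of 5 were lower in brain marker-positive cells: S1pr5 at 173 against 455 CPM, 0.381-fold (0.299 to 0.482), and Zeb2 at 434 against 882 CPM, 0.493-fold (0.421 to 0.575). Zeb2 was close to the threshold: its log2 ratio of -1.02 became -0.93 with TMM scaling, -0.94 by the mean of single cells, -0.95 among cells with a paired receptor and -0.82 at 3000 UMIs per cell, all within the fold. S1pr5 stayed past it, at -1.10 with 3000 UMIs per cell. A rule gene is detected at a lower CPM in a deeper cell, and the brain cells were deeper, with a median of 9795 against 5376 UMIs; the part of depth in these differences was not tested. Itga4, a chain of the integrin used for entry into the inflamed brain, was at 579 against 1194 CPM, 0.485-fold (0.424 to 0.554), with log2 ratios between -0.92 and -0.96, within the fold, by the mean of single cells, among cells with a paired receptor and with TMM scaling.

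Killer lectin receptors were within the fold in 6 of 8 measured genes, where 9.55% of all measured genes were past it. Klrb1c (NK1.1) was lower at 18.3 against 74.1 CPM, a log2 ratio of -2.02 that was -1.64 without the spleen barcode that lacked CD3 and -0.93 with at least 4 rule genes. Klra3 was lower at 23.3 against 50.7 CPM, with a log2 ratio of -0.17 for at least 4 rule genes. The cytotoxic granule list was within the fold in 14 of 15, the exception being Gzmb at 89.9 against 44.9 CPM, with a log2 ratio of 0.91 without the leading clonotype. Most genes of any kind were within the fold here, so that count is not read as a trait of the list. Ccl5 was at 7138 against 13263 CPM, 0.538-fold (0.518 to 0.559). Ifng was higher in brain at 2421 against 205 CPM, 11.8-fold (9.69 to 14.6), and 4.40-fold without the top cell of each tissue, at 831 against 189 CPM; other cells had 279 against 15.9 CPM, 17.6-fold. Il12rb2 was 3.20-fold higher in brain (2.49 to 4.15). The cell cycle genes Mki67 and Top2a had 89.9 against 23.4 CPM and 81.5 against 27.3 CPM, with 48.1% of the brain Mki67 UMIs in 1 cell. Cxcl10, Hbegf and Rgs16, which lead the ratios with 0 UMIs in spleen, had 53.6%, 91.1% and 72.3% of their brain UMIs in 1 cell each.

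**Figure D3:**
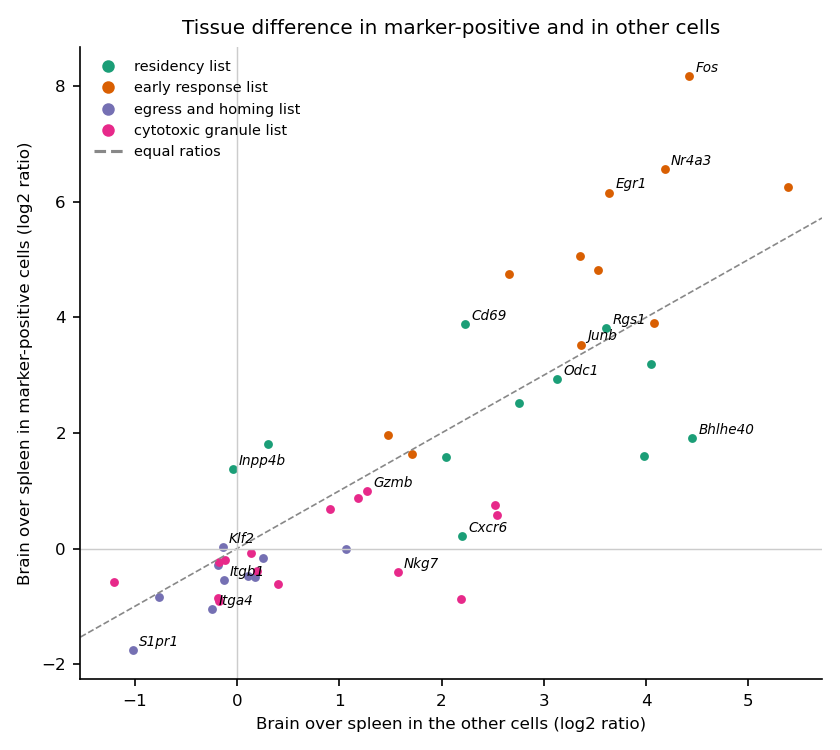
Log2 ratio of brain over spleen in marker-positive cells (vertical) and in other cells (horizontal) for measured genes of 4 lists, with the line of equal ratios dashed. Early response and most residency genes lie above 0 on both axes, Cxcr6 lies at 0.21 in marker-positive and 2.20 in other cells, and S1pr1 lies below 0 on both.

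Clonality was read from the receptors, which the rule did not use beyond the filter on chain number. A paired receptor was available for 44 of 54 brain and 75 of 84 spleen marker-positive cells. In brain 35 of the 44 (79.5%, 64.7 to 90.2%) belonged to clonotypes of 2 or more kept brain cells, against 41.9% (40.1 to 43.7%) of 2936 other cells. In spleen the share was 46 of 75 (61.3%, 49.4 to 72.4%), against 11.5% (10.7 to 12.4%) of 5978 other cells. Clonotypes of 5 or more cells held 54.5% of brain marker-positive and 23.5% of brain other cells, and 36.0% against 3.20% in spleen. The 44 brain cells fell into 24 clonotypes, where the same number of other cells would be expected to give 42.6, and the 75 spleen cells into 46, against 74.8. Cells of 1 clonotype share their ancestor and are not independent draws, so the intervals are no test of the difference. Tbx21 Nkg7 cells lay between, with 59.8% in clonotypes of 2 or more cells in brain and 36.9% in spleen, as did Eomes Gzmk cells with 54.3% and 19.6%.

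The share of cells whose clonotype was found in both tissues was also higher than in other cells of these libraries. A clonotype of more cells is more readily seen in a second library, and the part of clonotype size in these shares was not tested. A clonotype with at least 1 kept cell in the other tissue was carried by 27 of 44 brain cells (61.4%, 45.5 to 75.6%) and 48 of 75 spleen cells (64.0%, 52.1 to 74.8%), against 18.2% and 6.04% of other cells. It was carried by 25.1% of brain and 25.6% of spleen Tbx21 Nkg7 cells, and by 10.9% and 13.7% of Eomes Gzmk cells. Counted once each, 14 of 24 brain clonotypes (58.3%) and 20 of 46 spleen clonotypes (43.5%) were found in the other tissue. In 8 clonotypes there were marker-positive cells in both tissues, 33.3% of the 24 brain and 17.4% of the 46 spleen clonotypes, which held 20 of the 44 brain and 31 of the 75 spleen cells. The sources used here do not say whether both organs came from the same animals. Among cells with 2 or more rule genes the brain share was 40.5%, and 13 clonotypes were positive in both tissues. Without the leading clonotype the spleen share in clonotypes of 2 or more cells was 49.1%, and in clonotypes of 5 or more 15.8%. The shares with a clonotype found in both tissues were then 52.8% in brain and 52.6% in spleen.

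**Figure D4:**
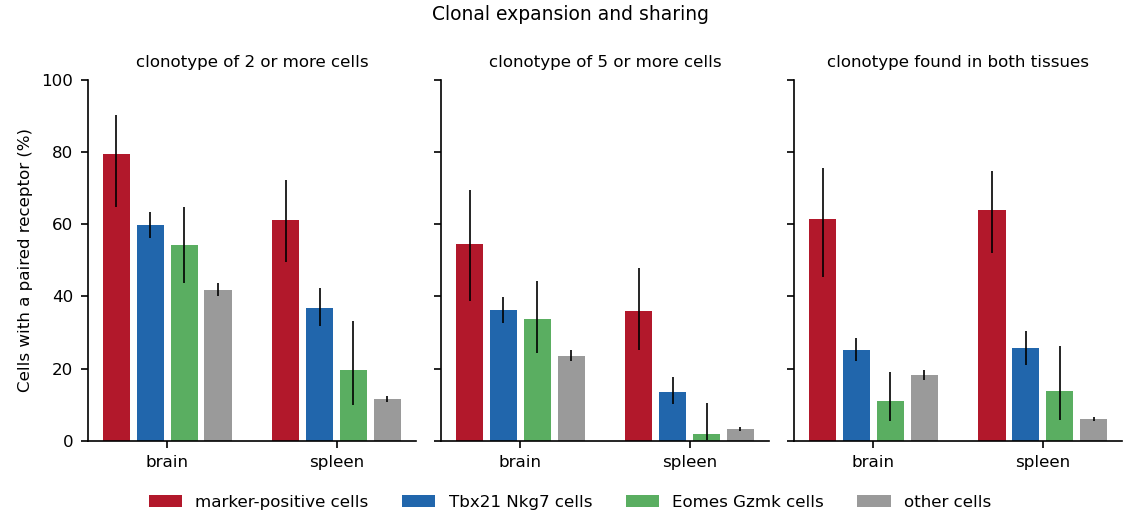
Share of cells with a paired receptor (percent) whose clonotype has at least 2 cells in its tissue (left), at least 5 (middle) or a cell in the other tissue (right), with exact binomial 95% intervals for counting error. Marker-positive cells are highest in each panel and tissue, at 79.5 and 61.3%, 54.5 and 36.0%, and 61.4 and 64.0% in brain and spleen; the Tbx21 Nkg7 and Eomes Gzmk cells are also part of the other cells.

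The leading clonotype, TRBV26 with TRAV7-5, had 8 marker-positive among its 56 brain cells and 18 among its 60 spleen cells, 14.3% and 30%. The TRBV13-3 with TRAV13N-1 clonotype had 6 among 67 brain cells and 0 cells in spleen. TRBV26 with TRAV9-1 had 4 among 27 brain cells and 2 among 3 spleen cells, and TRBV15 with TRAV9-4 had 1 among 3 and 4 among 8. TRBV13-2 with TRAV7-4 had 0 among 2 brain cells and 4 among 4 spleen cells. The same CDR3 pair also appeared under the joint V name TRBV12-2+TRBV13-2, with 2 marker-positive among 3 brain and 1 among 8 spleen cells, and it is counted here as 2 clonotypes. The alpha chain of the leading clonotype, printed above, recurred with 2 other beta chains that held 2 spleen marker-positive cells each, which are shown because all 3 use TRBJ1-5 and a CDR3 of 42 bases.
TRBV26 TRBJ1-5 beta, also with this alpha: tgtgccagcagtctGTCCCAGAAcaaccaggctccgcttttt
TRBV29 TRBJ1-5 beta, likewise with this alpha: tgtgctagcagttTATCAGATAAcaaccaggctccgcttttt

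TRBV26 was used by 14 of 44 brain (31.8%) and 26 of 75 spleen (34.7%) marker-positive cells, against 7.94% and 4.65% of other cells. Counted once per clonotype the shares were 16.7% and 13%, against 4.27% and 3.87%. The pair TRBV26 with TRAV7-5 was carried by 18.2% of brain and 30.7% of spleen marker-positive cells, 3.84% and 9.09% of Tbx21 Nkg7 cells and 2.01% and 1.05% of other cells. It came from 1 of the 24 brain and 4 of the 46 spleen marker-positive clonotypes.

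Gene levels differed between the leading clonotypes within the marker-positive cells. Klrc1 was detected in 5 of 8 brain and 17 of 18 spleen cells of TRBV26 with TRAV7-5, at 318 and 439 CPM. It was also detected in 3 of the 4 spleen cells of TRBV13-2 with TRAV7-4, at 539.9 CPM. Klrc1 had 0 UMIs in the 6 brain cells of TRBV13-3 with TRAV13N-1 and the 4 brain cells of TRBV26 with TRAV9-1. The 4 spleen cells of TRBV15 with TRAV9-4 likewise had 0. Gzma stood at 183 CPM in the 8 brain and 184 CPM in the 18 spleen cells of the leading clonotype, at 3659 CPM in the 4 spleen cells of TRBV13-2 with TRAV7-4, and at 0 in the 4 spleen cells of TRBV15 with TRAV9-4. Ccl5 ran between 2525 CPM in the TRBV13-3 cells and 16377 CPM in the TRBV13-2 cells. The TRBV13-3 cells had the lowest S1pr5, Klf2 and Itgb1 of the 6 sets, at 47.6, 539.9 and 429 CPM. The 8 brain cells of the leading clonotype had 232, 2214 and 1675 CPM. The low values were not limited to these genes. Of the 6 sets the TRBV13-3 cells were also lowest in Zeb2 (318 CPM), Cx3cr1 (95.3 CPM) and Klrg1 (143 CPM). The same held for Nkg7 (1254 CPM), Tbx21 (111 CPM) and Klrd1 (111 CPM), but not for Gzma or Ifng. In Cxcr6 they were highest, at 651 CPM. These are sums over 4 to 18 cells, with no replicate. The TRBV13-2 set leaves out the cells with the same CDR3 pair under the joint V name.

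**Figure D5:**
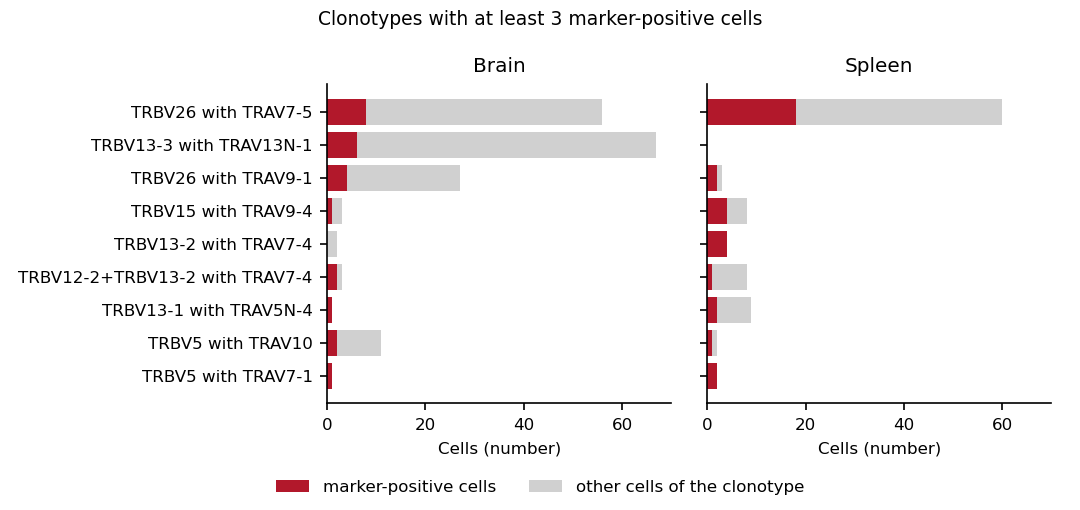
Number of cells in the 9 clonotypes with at least 3 marker-positive cells over both tissues, in brain (left) and spleen (right), split into marker-positive cells and other cells of the same clonotype. The leading clonotype has 56 brain and 60 spleen cells, of which 8 and 18 are marker-positive. TRBV13-3 with TRAV13N-1 has 67 cells, all in brain. TRBV13-2 and TRBV12-2+TRBV13-2 with TRAV7-4 share a CDR3 pair and are drawn as 2 clonotypes.

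The share of marker-positive cells within these clonotypes differed widely. In brain the 24 clonotypes held 237 kept cells, of which 44 (18.6%, 13.8 to 24.1%) were marker-positive, and in spleen the 46 clonotypes held 164 cells, of which 75 (45.7%, 37.9 to 53.7%). Without the leading clonotype, an alternative chosen after seeing the data, the shares were 36 of 181 in brain (19.9%, 14.3 to 26.5%) and 57 of 104 in spleen (54.8%, 44.7 to 64.6%). All kept cells were marker-positive in 11 of 24 brain and 32 of 46 spleen clonotypes, of which 9 and 29 had a single cell. The clonotypes were chosen for holding a marker-positive cell. Those of a single cell were therefore marker-positive by construction and raise the shares above, so no order of the tissues is read from them. The 193 brain and 89 spleen cells of the same clonotypes that missed the rule had levels between those of marker-positive cells and other clonotypes for some genes and outside them for others. Nkg7 stood at 2067 CPM in marker-positive cells, 760.4 CPM in their clone mates and 326 CPM in cells of other clonotypes in brain, and at 2573, 1357 and 103 CPM in spleen. Tbx21 stood at 224, 147 and 56.4 CPM in brain and 406, 220.1 and 20 CPM in spleen. Ccl5 set them further apart, with 7398 CPM in marker-positive cells against 1179 CPM in clone mates in brain and 12846 against 1534 CPM in spleen, as did Klrd1 with 385 against 37.3 CPM and 428 against 116 CPM. Klf2 stood at 2022 CPM in brain marker-positive cells, against 285 CPM in clone mates and 666 CPM in other clonotypes. Cxcr6 was highest in clone mates, with 457 CPM in marker-positive cells, 534 CPM in clone mates and 319 CPM in other clonotypes in brain, and 381, 668 and 61.4 CPM in spleen. Ifng stood at 2927, 708 and 235 CPM in brain and at 216, 292 and 12.5 CPM in spleen. The 44 brain cells include the 1 cell at 59926 CPM of Ifng. Without that cell all brain marker-positive cells, paired or not, came to 831 CPM, near the 708 CPM of clone mates. Il7r was lower in marker-positive cells than in clone mates, with 184 CPM in marker-positive cells and 419 CPM in clone mates in brain, and 357 and 1033 CPM in spleen. Il17a had 0 UMIs in the 44 marker-positive cells and 352 UMIs, 179.8 CPM, in the 193 brain clone mates. The rule separates marker-positive cells from clone mates by their UMIs, so these levels are a description.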

How the data were processed

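Brain and spleen RNA libraries were deposited by the authors as raw UMI counts per gene and barcode, and TCR libraries as annotated contigs with their own UMI counts; per the submitters' processing notes, Cell Ranger 9.0.0 was used. Several genome builds are listed there with no role stated, and coordinates are left out. The members and gene lists were chosen with earlier results of these data known. No doublet caller was run: barcodes with over 1 productive TRB or over 2 productive TRA were left out. UMIs were summed per group and divided by the group's total (CPM). Ratios carry exact conditional binomial 95% intervals and shares Clopper-Pearson 95% intervals; both cover counting error only. A count of 0 was read as at most 3 counts. With 1 library per tissue there is no test between groups and cells were not used as replicates. Thinned values keep 3000 random UMIs per cell (seed 11). Clonotypes needed 1 productive TRB and at least 1 TRA, the one with most UMIs being used.

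Measured members of the lists could be named, as could the 12 highest and 10 lowest genes of each comparison, ranked by the interval bound nearest 1; receptor, immunoglobulin, mitochondrial, ribosomal, haemoglobin, sex-linked and unnamed genes were left out of that ranking. Clonotypes with at least 3 marker-positive cells could be named. Alternatives changed the number of rule genes, cell filters, receptor requirement, scaling, cell weighting, minimum level, fold, clonotype definition, depth and leading clonotype. Python 3.11.15, numpy 2.4.6, scipy 1.17.1, pandas 2.3.3 and matplotlib 3.10.9 were used, with TMM factors of edgeR 4.0.16 in R 4.3.3. The steps were tested on simulated data.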

Additional observations from a re-analysis of the deposited data

Results flagged for a closer look

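In 4 genes the marker-positive cells stood on opposite sides of the other cells in the 2 tissues. They were picked after their values were seen, and the difference between tissues was not tested. Ctla2a, a cysteine protease inhibitor gene, was at 58.2 against 253 CPM in brain (0.230-fold) and 135 against 40.7 CPM in spleen (3.30-fold). Gpr18, a lipid receptor gene, was at 59.9 against 26.6 CPM in brain (2.25-fold) and 31.2 against 62.5 CPM in spleen (0.50-fold). Cenpa, a centromere histone gene, was at 88.2 against 43.5 CPM in brain (2.03-fold), with 64.2% of those UMIs in 1 cell, and 21.5 against 52.7 CPM in spleen (0.407-fold). The receptor segment Trbv13-3 was at 286 against 94.5 CPM in brain (3.03-fold) and 46.8 against 117 CPM in spleen (0.400-fold), with 87.5% of the spleen UMIs in 1 cell.

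Barcodes left out for more than 1 TRB or more than 2 TRA chains also met the marker rule. They were 6 of 179 in brain (3.35%, 1.24 to 7.15%), with a median of 15080.5 UMIs, and 4 of 315 in spleen (1.27%, 0.347 to 3.22%), with a median of 6189 UMIs.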

How the results depend on the processing

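No paired analysis was possible because each tissue has 1 library, and for the same reason no replicate could be left out. The share of marker-positive cells was 5.83% in brain and 1.62% in spleen with at least 2 rule genes, 1.0% and 0.657% with at least 4, and 0.785% in brain at 3000 UMIs per cell. Genes higher and lower numbered, with a 20 CPM minimum, 245 and 336 in brain, 560 and 485 in spleen, and 495 and 489 between brain and spleen marker-positive cells. With no minimum they numbered 1373 and 918, 1779 and 999, and 935 and 1133; with a fold of 1.5, 441 and 306, 762 and 477, and 538 and 573. At 3000 UMIs per cell brain had 267 and 270, and 372 genes were lower in brain than in spleen marker-positive cells; that last count was 232 with at least 4 rule genes and 223 without the leading clonotypes. By the mean of single cells 220 genes were lower in brain. The looser minimum and fold admit more genes by construction; for the other settings the cause was not tested. With at least 2 rule genes 40.5% of brain cells had a clonotype found in both tissues, and 13 clonotypes were marker-positive in both. Without the leading clonotype 49.1% of spleen cells were in clonotypes of 2 or more cells and 15.8% in those of 5 or more. Of 2688 recomputed values for 252 named gene ratios past the fold, 2402 lay within the interval of the reported value, 285 outside it, and 1 changed sign: Gzmk in spleen, -0.62 (log2) with at least 4 rule genes, where 1 cell held 76.9% of its UMIs. The alternatives without the top cell of each gene, without the barcode lacking CD3, with thinned gene sums and without V names were chosen after seeing the data.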
